A study of Mus musculus with 25 samples.

Results

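The comparison of CLA-treated with LA-treated 3T3-L1 adipocytes at 12 h rests on 8 arrays of the 25 in the series: the 4 arrays labelled CLA at 12 h and the 4 labelled LA at 12 h, which carry the replicate numbers 1 to 4 in each treatment. The CLA group is the treatment and the LA group the control, and both were cultures of 3T3-L1 adipocytes. 3T3-L1 is a single clonal mouse line of preadipocytes that is turned into fat cells in culture by hormones. The labels spell out neither abbreviation, and in work on fat cells CLA commonly means conjugated linoleic acid and LA linoleic acid, the same fatty acid with its double bonds apart. The sources used here do not give the dose, the isomer, the serum or the days since differentiation. Total RNA extracted with Trizol was made into biotin-labelled cRNA and hybridised to 1-colour Affymetrix arrays, and the labels call the arrays of a group biological replicates without saying what was separate. Other arrays of the series, 4, 8 and 24 h after the start of treatment, enter here through the shared estimate of the spread and through the comparison of 12 h with 8 h and 24 h.

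A mature adipocyte makes fatty acids from glucose, joins them to glycerol as triglyceride and stores them in a lipid droplet, a programme that the transcription factors PPARγ and C/EBPα switch on and hold. Several stress pathways act on such cells: NRF2 turns on antioxidant genes when electrophiles modify its inhibitor, ATF4 turns on amino acid and stress genes when translation initiation is held back, and growth factor signals through ERK turn on immediate early genes and, with them, the phosphatases that end the signal. The members of these pathways were measured side by side, so the 12 h arrays show the stress genes and the fat storage genes in the same RNA.

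Mean intensities of the 8 arrays were 93.8 to 143.3, and 75.3% to 80.6% of probe sets were above 0. The pair with replicate number 4 was dim, with 75th percentiles of intensity of 37.3 in CLA and 37.5 in LA, against 54.5 to 80.7 in the other 6 arrays. The pair numbered 1 had actin 3′ to 5′ ratios, which rise as RNA is broken down, of 2.83 in CLA and 5.67 in LA, against 1.43 to 1.74 in the other 6. Arrays with the same replicate number resembled each other: over 14428 genes the replicate number accounted for 98.9% of the first principal component of the 8 arrays and the treatment for 0.449%, while of the second component, which held 14.8% of the variance, the replicate number accounted for 47.6% and the treatment for 44.0%. CLA and LA arrays are therefore set side by side by replicate number below and called pairs 1 to 4.

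Defining fat cell genes were among the brightest on the arrays. Adiponectin (Adipoq) read 3648 to 7057 in CLA and 6934 to 8108 in LA, and the fatty acid binding protein Fabp4 read 7343 to 9260 in CLA and 7801 to 9260 in LA (normalised intensity, 4 arrays each). The summed level of the 6 adipocyte markers ran from 17749 to 24851 in CLA and from 24464 to 31397 in LA, and 3 of the 6 fell (Slc2a4, Cidec and Pparg) while none rose. Summed levels of the 8 fibroblast and preadipocyte markers were 13123 to 20937 in CLA and 13359.5 to 22198 in LA, and of the 7 that were tested none passed in either direction. Macrophage markers summed to 182 to 451 in CLA and 121 to 352 in LA. Itgam, Ptprc, Tyrobp and Lyz2 read below 15 on every array. Csf1r read 54.6 to 265.8 in CLA and 51.0 to 290.7 in LA. Adgre1 read 12.8 to 111.2 in CLA and 20.2 to 84.8 in LA, and Cd68 6.73 to 65.4 and 0.639 to 17.5. Of the 5 macrophage markers tested only Cd14 rose (1.42 ± 0.35, adjusted p = 0.034, on the log2 scale, and 0.68 with the larger offset of 57.7). The endothelial markers summed to 15.7 to 31.2 in CLA and 17.1 to 29.0 in LA, with Pecam1 at 0 on all 8 arrays. Fewer cells of a type and less RNA per cell cannot be told apart in such bulk samples, and the part of the adipocyte markers' lower sum in the results below was not tested.

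At 12 h, 677 of 14428 genes (4.69%) differed between CLA and LA, 331 of them higher (2.29%) and 346 lower (2.4%). Differences are given throughout as log2 CLA minus LA ± standard error, 4 arrays a group, on the scale log2(intensity + 0.984), with levels on the linear intensity scale. A gene is said to have risen or fallen only if its adjusted p fell below 0.05 in a limma fit of all 25 arrays that has the treatment and time groups and the array sets as terms. Array sets are 5 groups of arrays that cluster together. At 12 h each of the 4 sets present holds a CLA and an LA array of the same replicate number, so the set term compares within pairs. The median difference over all genes was 0.00. Of the 331 genes that rose, 323 were higher under CLA in all 4 pairs and 83 had all CLA arrays above all LA arrays, and of the 346 that fell, 334 were lower in all 4 pairs and 69 had no overlap. Over all genes, 12.2% were higher and 12.5% lower in all 4 pairs, and 1.28% lay wholly above and 1.16% wholly below LA.

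**Figure D1:**
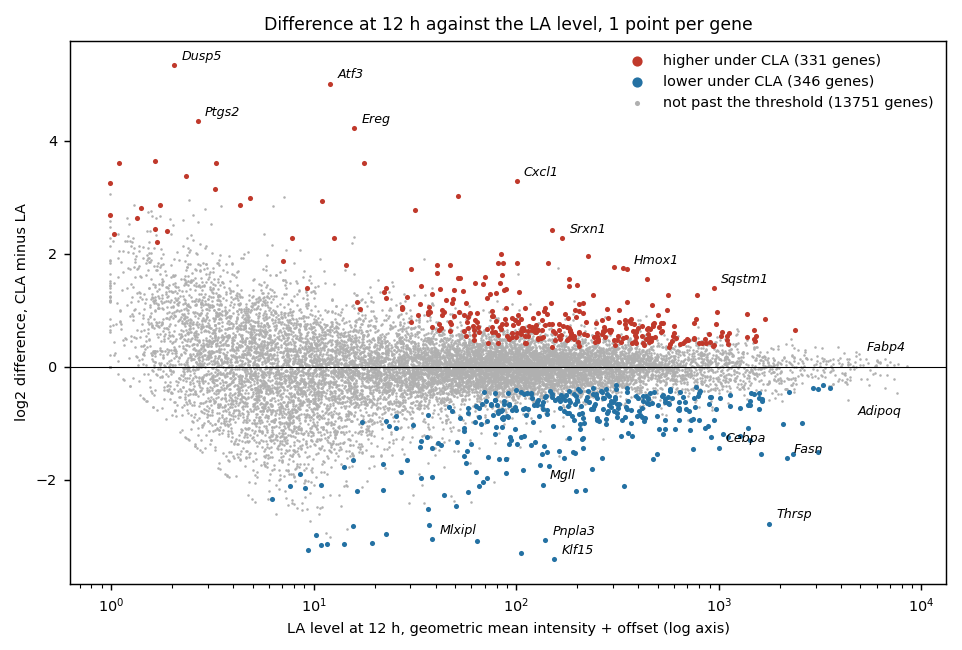
Log2 difference CLA minus LA at 12 h (y axis) against the LA level, the geometric mean of 4 arrays plus the offset of 0.984 (x axis, log scale), for 14428 genes. Red points are the 331 genes higher under CLA, blue points the 346 lower and grey points the genes that did not pass; dim genes at the left spread most, and the named fat synthesis genes sit among the brighter ones.

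The number of calls depended on how the spread was estimated. Without the array sets 4 genes passed (0.0277%), all of them higher. With the 8 arrays at 12 h alone, compared within pairs by replicate number, limma called 0 genes, with 1830 at an unadjusted p under 0.05; 3 residual degrees of freedom then set the spread, against 13 in the fit of all arrays. With a larger offset of 57.7, which damps the scatter of dim genes, the same 4 pairs alone gave 329 calls (2.28%; 178 higher, 1.23%, and 151 lower, 1.05%) and the fit of all arrays gave 1285 (8.91%; 672 higher, 4.66%, and 613 lower, 4.25%). Of the genes that rose, 323 passed in the same direction with the larger offset in the fit of all arrays and 149 also in the 4 pairs alone; of those that fell, 331 and 126 did. Leaving out 1 array gave 163 calls without CLA replicate 2 (1.13%), 278 without CLA replicate 3 (1.93%), 383 without CLA replicate 4 (2.68%) and 859 without CLA replicate 1 (5.96%). The same for LA gave 177 calls without replicate 2 (1.23%), 316 without replicate 3 (2.19%), 189 without replicate 4 (1.32%) and 885 without replicate 1 (6.15%). Without pair 1, 919 genes passed (6.39%; 458 higher, 3.19%, and 461 lower, 3.21%), and without the 5 arrays of the set that holds pair 4, called the dim arrays below, 129 did (0.972%; 59 higher, 0.444%, and 70 lower, 0.527%). The 75th percentiles of that set were 26.5 to 37.5; LA replicate 1 at 4 h, at 29.7, is in another set and stayed in the fit. Of the 110 genes named below by the rule that passed, 47 passed in each of the 8 fits without 1 array, and 63 lost the call in at least 1 of them. Among these 47, 32 also passed without pair 1 and without the dim arrays: Atf3, Ier3, Ifrd1, Ereg, Clcf1, Sprr1a, Cxcl1, Ptgs2, Srxn1, Hmox1, Gclm, Txnrd1, Ppp1r15a, Sqstm1, Gadd45a, Plk3, Hsd17b7 and Angptl4, which rose, and Cebpa, Thrsp, Fasn, Lpin1, G0s2, Mgll, Bscl2, Slc2a4, Pfkfb3, Tbc1d4, Slc1a3, Car2, Aoc3 and Cdkn2c, which fell.

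Genes that rose had a median LA level of 143 and genes that fell of 196, against 48.6 over all genes tested. More than 1 log2 unit separated CLA from LA in 97 of the genes that rose and 121 of those that fell, and with the larger offset in 34 and 28. Ranked by the difference with the larger offset, the 12 largest rises were Cxcl1, Atf3, Ereg, Ier3, Srxn1, Hmga2, Sprr1a, Tnfrsf12a, Clcf1, Ifrd1, Dusp1 and Hmox1. The 12 largest falls were Thrsp, Fasn, Car2, Dgat2, G0s2, Gpd1, Coq8a, Lpin1, Klf15, Cebpa, Aoc3 and Pnpla3. Among the falls are enzymes of fatty acid and triglyceride synthesis, among the rises secreted signals, early response factors and antioxidant enzymes.

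**Figure D2:**
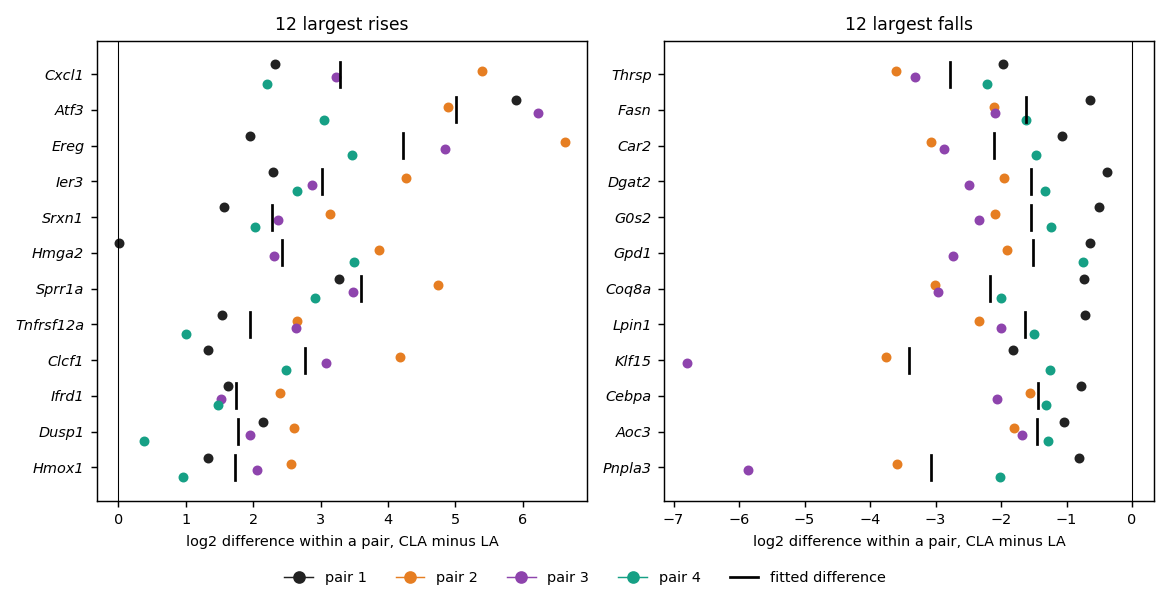
Log2 difference CLA minus LA within each of the 4 pairs (x axis, coloured points) for the 12 genes with the largest rise (left) and the largest fall (right), with the fitted difference as a black bar. Genes were taken only from calls with 1 sign in all 4 pairs, so all points keep the sign of their gene. Pair 1 (black) lies nearest 0 for 5 of the rises and 11 of the falls, and for Hmga2 it lies at 0.01.

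Calls in the gene lists below stand beside 2.29% of all genes that rose and 2.4% that fell, or 4.66% and 4.25% with the larger offset. Members higher or lower in all 4 pairs stand beside 12.2% and 12.5% of all genes. Immediate early genes had the highest median difference of the 35 gene lists examined. Of 18 measured members, which encode transcription factors and regulators made within minutes to hours of a stimulus, 6 rose and none fell, with a median difference of 1.04 (0.64 with the larger offset, under which 11 rose). Ier3, a short-lived survival factor, read 259, 625, 349 and 551 in CLA arrays 1 to 4, against 52, 31.4, 46.7 and 86.9 in LA, a difference of 3.02 ± 0.39 (adjusted p = 0.00155). All 4 CLA values lay above all 4 LA values. Jun, a subunit of the AP-1 transcription factor, read 185, 635, 497 and 288 in CLA, against 66.8, 48.8, 199 and 155 in LA (1.84 ± 0.42, adjusted p = 0.0233). The groups overlapped for Jun, and every CLA array was above its LA partner. Klf6 (1.84 ± 0.39, adjusted p = 0.0158), Ier5 (1.59 ± 0.29, adjusted p = 0.00823), the growth regulator Myc (0.95 ± 0.16, adjusted p = 0.00695) and Egr1 (1.55 ± 0.39, adjusted p = 0.0366) also rose. In pair 1 Egr1 read 2289.8 in CLA and 1987 in LA, whereas LA arrays 2 to 4 read 302, 326 and 195. Fos differed by 1.14 and the AP-1 member Fosl1 by 1.74, neither past the threshold. Without pair 1, 7 of the 18 rose, and without the dim arrays 1 did.

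The next list holds genes of ERK feedback, phosphatases of p38 and JNK such as Dusp10 and Dusp16, ETS factors and genes of the EGF receptor family. Of its 23 measured members 9 rose and 1 fell, with a median of 0.52 (0.12 with the larger offset). Epiregulin (Ereg), an EGF receptor ligand, read 176, 939, 339.8 and 135 in CLA, against 44.7, 8.56, 10.8 and 11.3 in LA (4.22 ± 0.63, adjusted p = 0.0033, and 2.28 with the larger offset). Dusp5, a nuclear phosphatase of ERK, read 33.6, 169, 64 and 123 in CLA, against 17.6 in LA array 1 and 0 in the other 3. Its difference of 5.34 ± 0.79 (adjusted p = 0.00327) depends on the offset and was 1.26 with the larger offset, where it still passed. Dusp1, a phosphatase of p38, JNK and ERK, read 715, 1791, 816 and 1087 in CLA, against 161, 293, 210.4 and 835 in LA (1.77 ± 0.36, adjusted p = 0.0138); its rise in the dim pair 4 was 0.38, and 1.95 to 2.61 in the other 3. Dusp16 (1.22 ± 0.23, and 0.80 with the larger offset), Dusp10 (1.11 ± 0.21, and 0.54 with it), Dusp6 (1.34 ± 0.29), the ETS factor Etv5 (0.80 ± 0.16) and the Ras pathway inhibitors Spry2 (0.84 ± 0.19) and Spred2 (0.52 ± 0.13) rose as well, with adjusted p from 0.0104 to 0.0347. Another probe set of Spry2 and another of Etv5 had the other sign, at -0.78 and -0.44. Nrg4, a ligand secreted by fat that binds ErbB4, fell to 29.4, 19.4, 11 and 43.6 in CLA, against 32, 119, 56.9 and 119 in LA (-1.60 ± 0.29, adjusted p = 0.00887, and -0.70 with the larger offset). The ligand Hbegf (2.06) did not pass, although its 4 CLA values of 20.2 to 58.1 lay above its 4 LA values of 2.98 to 15.4. Without pair 1, 8 rose and 1 fell, and without the dim arrays 2 rose and none fell of 21.

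Several of the largest rises belong to none of these lists. Sprr1a, a small proline-rich protein also known from injured nerve and heart, read 51, 378, 185 and 585 in CLA, against 4.41, 13.1, 15.7 and 76.8 in LA (3.60 ± 0.44, adjusted p = 0.00101, and 1.85 with the larger offset). Clcf1, a cytokine of the IL-6 family, read 76.4, 560.2, 182 and 271 in CLA, against 29.7, 29.9, 20.7 and 47.6 in LA (2.77 ± 0.36, adjusted p = 0.00163, and 1.67 with the larger offset). Tnfrsf12a, the receptor of the cytokine TWEAK, rose by 1.96 ± 0.38 (adjusted p = 0.011), and Ifrd1, a transcriptional co-regulator, by 1.75 ± 0.21 (adjusted p = 0.000986) with 797 to 1769 in CLA and 286 to 395 in LA. Hmga2, a chromatin protein of proliferating mesenchymal cells, is uneven: it read 754, 1164, 827 and 565 in CLA, against 748, 78.7, 165 and 49.1 in LA (2.42 ± 0.45, adjusted p = 0.00991). The LA array of pair 1 alone was as high as CLA, and without pair 1 the difference was 3.23.

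Inflammatory signals were led by 2 genes. Cxcl1, a chemokine that draws neutrophils, read 1083, 1476, 654 and 884 in CLA, against 216, 34.1, 68.7 and 191 in LA (3.29 ± 0.57, adjusted p = 0.00695). Ptgs2, the inducible cyclooxygenase that begins prostaglandin synthesis, read 106, 128, 31.4 and 18.7 in CLA, against 4.37, 3.46, 0 and 1.2 in LA (4.35 ± 0.31, adjusted p = 1.04e-05, and 1.02 with the larger offset). LA was near the floor of the scale for Ptgs2 on all 4 arrays and CLA was not. Of 27 measured chemokines, cytokines and NF-kB genes, 2 rose, Cxcl1 and the NF-kB subunit Rela (0.62 ± 0.15, adjusted p = 0.0278), and none fell, with a median of 0.62 that came to 0.19 with the larger offset. Ccl2, the monocyte chemokine, read 269.7, 240.2, 81.5 and 99.8 in CLA, against 221, 19.8, 30.3 and 50.3 in LA (1.55 ± 0.43, adjusted p = 0.0568), and Il6 was dim in both groups (3.96 to 19.8 in CLA and 0.114 to 9.74 in LA, adjusted p = 0.42). Ptgs2 was the only riser of 12 prostaglandin genes and none fell. Of 11 acute phase proteins, the pattern recognition protein Ptx3 rose (1.12 ± 0.27, adjusted p = 0.0297, with another probe set at -1.09) and Orm1 fell (-1.06 ± 0.22, adjusted p = 0.0142). Of the chemokine list 4 rose without pair 1 and 1 without the dim arrays, of the prostaglandin list 1 in each, and of the acute phase proteins 2 rose and 2 fell without pair 1 and none passed without the dim arrays.

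Of 25 measured NRF2 target genes 9 rose and none fell, 15 were higher in all 4 pairs, none was lower in all 4, and the median difference was 0.35. Srxn1, which repairs oxidised peroxiredoxins, read 355, 1457, 545 and 1577 in CLA, against 119, 164, 105 and 388 in LA (2.27 ± 0.25, adjusted p = 0.000549). The groups overlapped only through CLA array 1 (355) and LA array 4 (388). Haem oxygenase (Hmox1), which breaks down haem, read 396, 1606, 1368 and 2079.9 in CLA, against 157, 270.3, 329 and 1065 in LA (1.73 ± 0.28, adjusted p = 0.00578). Thioredoxin reductase (Txnrd1) read 335, 446, 303 and 514 in CLA, against 238, 202, 143 and 207 in LA (1.0 ± 0.16, adjusted p = 0.00437), with every CLA array above every LA array. Gclm, the modifier subunit of the enzyme that limits glutathione synthesis, read 286, 367, 142 and 723 in CLA, against 118, 154, 84 and 306 in LA (1.12 ± 0.12, adjusted p = 0.000549), and the catalytic subunit Gclc rose by 0.48 ± 0.12 (adjusted p = 0.0363). The carbonyl reductase Cbr3 (1.27 ± 0.23), the growth inhibitor Osgin1 (1.06 ± 0.26), the biliverdin reductase Blvrb (0.87 ± 0.18) and the quinone reductase Nqo1 (0.69 ± 0.17) rose too, with adjusted p from 0.00788 to 0.0311. The cystine transporter Slc7a11 read 4.42, 20, 15 and 18.5 in CLA, against 6.94, 0.628, 1.14 and 0 in LA (2.59 ± 0.79, adjusted p = 0.0793). The measured members Me1 (-0.08) and Pgd (0.02), which produce NADPH, did not pass, nor did Taldo1 (-0.38) and Tkt (-0.39). The factor itself, Nfe2l2, differed by 0.38 ± 0.13 (adjusted p = 0.112). With the larger offset 12 members rose and 3 fell. Without pair 1, 10 rose and 3 fell, and without the dim arrays 4 rose and none fell.

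The promoters of Srxn1 and Txnrd1 are shown because these genes rose in every pair and carry motifs that NRF2 or AP-1 can bind. The windows, from RefSeq with build GRCm38.p6, run 5′ to 3′ on the gene's strand from 250 bases before to 50 after the annotated start, with motif matches in capitals: TGANTCA for Srxn1, an AP-1 site that also forms the core of NRF2 sites, and TGACNNNGC for Txnrd1, the antioxidant response element core, which lies there on the opposite strand.
Srxn1: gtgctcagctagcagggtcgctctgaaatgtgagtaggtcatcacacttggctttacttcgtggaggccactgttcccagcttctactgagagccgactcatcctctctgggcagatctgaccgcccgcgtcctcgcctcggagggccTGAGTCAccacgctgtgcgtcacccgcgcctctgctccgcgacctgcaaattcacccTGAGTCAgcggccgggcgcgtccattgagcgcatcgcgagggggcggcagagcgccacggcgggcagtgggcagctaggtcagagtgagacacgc
Txnrd1: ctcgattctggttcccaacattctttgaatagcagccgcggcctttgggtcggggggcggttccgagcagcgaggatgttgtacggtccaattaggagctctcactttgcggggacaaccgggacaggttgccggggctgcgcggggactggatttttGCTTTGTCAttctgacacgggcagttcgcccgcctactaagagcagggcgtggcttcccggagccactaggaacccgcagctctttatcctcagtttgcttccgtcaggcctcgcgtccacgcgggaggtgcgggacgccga
The Srxn1 window (chr2:152105274-152105573, plus strand) holds 2 matches, which begin 102 and 45 bases before the start, and the Txnrd1 window (chr10:82858956-82859255, plus strand) 1 match that begins 92 bases before it. Of 20 NRF2 list genes with a RefSeq promoter 7 (35%) held TGACNNNGC on either strand and 3 (15%) held TGANTCAGC, a longer NRF2 site that contains TGANTCA, against 16.5% and 1.39% of the 11594 tested genes with a promoter. Of the carriers of TGACNNNGC, Gclm, Srxn1 and Txnrd1 rose, while Abcc4, Gsta3, Me1 and Pgd did not pass. Cbr3, Blvrb, Osgin1 and Nqo1 rose without a match to it. A match is a description of the letters only.

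ATF4, its partners and its targets were mixed. Of 17 measured members 5 rose and none fell, with a median of 0.53 (0.11 with the larger offset). Atf3, a stress-induced factor that ATF4 and other signals turn on, read 198, 557, 261 and 797 in CLA, against 2.36, 17.9, 2.51 and 95.6 in LA (5.01 ± 0.58, adjusted p = 0.000986, and 2.50 with the larger offset). All CLA arrays lay above all LA arrays for Atf3. Atf4 itself read 844, 1585, 1699 and 2729.6 in CLA, against 580.3, 926, 1161 and 1823 in LA (0.61 ± 0.12, adjusted p = 0.0116), and its 4 pairs were close, at 0.54 to 0.77. Ppp1r15a, which encodes GADD34 and brings a phosphatase to the initiation factor eIF2α, read 70.5, 403, 261 and 639.7 in CLA, against 28.3, 80.6, 84.4 and 257 in LA (1.63 ± 0.25, adjusted p = 0.00413). The selective autophagy receptor Sqstm1, which both ATF4 and NRF2 induce, read 1222, 2983, 2118 and 4852 in CLA, against 476, 783, 894 and 2372 in LA (1.39 ± 0.18, adjusted p = 0.00127). The small stress protein Nupr1 rose by 0.60 ± 0.15 (adjusted p = 0.0389). Ddit3, which encodes CHOP, read 482, 746, 635 and 1879.6 in CLA, against 189.9, 330.0, 587 and 974 in LA (0.89 ± 0.32, adjusted p = 0.136), and another probe set of it stood at -0.25. Trib3 (0.55), Chac1 (0.53), Sesn2 (-0.31) and Cebpg (-0.18) did not pass, nor did Cebpb (0.01 ± 0.16). Without pair 1, 4 rose and 1 fell with a median of 0.19, and without the dim arrays 4 rose of 16.

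Promoters of Ppp1r15a and Atf3 are shown for the same reason, with TGACGTCA, the cyclic AMP response element that ATF and CREB factors bind, in capitals for Ppp1r15a, and TGATGNAA, the composite C/EBP-ATF element, on the opposite strand for Atf3.
Ppp1r15a: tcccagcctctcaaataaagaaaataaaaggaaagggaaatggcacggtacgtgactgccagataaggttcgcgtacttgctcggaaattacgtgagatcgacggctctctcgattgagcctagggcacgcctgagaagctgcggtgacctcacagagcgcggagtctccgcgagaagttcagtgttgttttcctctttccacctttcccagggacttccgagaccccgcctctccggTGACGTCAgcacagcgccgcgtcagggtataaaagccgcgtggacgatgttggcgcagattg
Atf3: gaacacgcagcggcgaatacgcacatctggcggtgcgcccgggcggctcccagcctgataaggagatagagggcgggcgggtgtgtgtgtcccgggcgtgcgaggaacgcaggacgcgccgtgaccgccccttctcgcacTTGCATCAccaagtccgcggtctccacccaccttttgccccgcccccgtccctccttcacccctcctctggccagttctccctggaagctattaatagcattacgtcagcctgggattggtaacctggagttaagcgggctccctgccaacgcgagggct
The match of Ppp1r15a (chr7:45526219-45526518, minus strand) begins 12 bases before the start and that of Atf3 (chr1:191183284-191183583, minus strand) 110 bases before it. TGATGNAA was found in 7 of 16 promoters of the ATF4 list (43.8%), against 2.95% of all 11594. Of these carriers Atf3 and Nupr1 rose, while Fgf21, Chac1, Trib3, Herpud1 and Vldlr did not pass. Sqstm1, Ppp1r15a and Atf4 rose without a match to TGATGNAA.

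Of 19 cytosolic aminoacyl-tRNA synthetases, which charge tRNAs, 4 rose, none fell and 14 were higher in all 4 pairs, with a median of 0.39 and 10 rises with the larger offset. Asparaginyl-tRNA synthetase (Nars) read 829, 759.8, 918 and 647 in CLA, against 609.6, 423, 621 and 309 in LA (0.73 ± 0.14, adjusted p = 0.0109). Tars (0.51 ± 0.10), Rars (0.46 ± 0.12) and Aars (0.40 ± 0.09) rose with adjusted p from 0.0142 to 0.0417. Of 13 serine, one-carbon and asparagine genes, Asns, which makes asparagine (0.39 ± 0.09, adjusted p = 0.0311), and the mitochondrial enzyme Shmt2 (0.64 ± 0.13, adjusted p = 0.0141) rose, while Phgdh (0.03), Psat1 (-0.12) and Mthfd2 (0.06) did not pass. Of 17 amino acid transporters, the cationic carrier Slc7a1 rose (1.04 ± 0.20, adjusted p = 0.011) and the glutamate carrier Slc1a3 fell (-1.16 ± 0.20, adjusted p = 0.00695). Each is 5.88% of the list, against 2.29% of all genes that rose and 2.4% that fell. None of 22 ER chaperones and unfolded protein response genes passed, and their median was -0.05; Hspa5, the chaperone BiP, stood at 0.49 ± 0.14 (adjusted p = 0.0704). Without pair 1, 5 synthetases and 3 serine and one-carbon genes rose, and without the dim arrays none did.

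Of 25 measured proteasome subunits, which break down tagged proteins, 11 rose by small amounts and none fell, 23 were higher in all 4 pairs and none lower in all 4, with a median difference of 0.41 (0.37 with the larger offset, under which 16 rose). That is 44% of the subunits, against 2.29% of all genes, and the risers are ATPases and other subunits of the cap (Psmc2, Psmc4, Psmc6, Psmd2, Psmd11, Psmd12, Psmd14) and subunits of the core barrel (Psma2, Psma4, Psma7, Psmb4). Psmc2, an ATPase, read 2885, 2350.2, 1919 and 1914 in CLA, against 2041, 1465, 1459 and 1245 in LA (0.55 ± 0.11, adjusted p = 0.013). Psmd14, which removes ubiquitin at the cap, read 1546, 1470.3, 1377 and 1009.8 in CLA, against 1231, 924, 1044 and 533 in LA (0.58 ± 0.12, adjusted p = 0.013). The groups overlapped for both, and every CLA array was above its LA partner. Psmd11 (0.55 ± 0.12, adjusted p = 0.0203) had all CLA arrays above all LA arrays. Psmc6 (0.76 ± 0.14, adjusted p = 0.0105) and Psma7 (0.49 ± 0.09, adjusted p = 0.011) rose as well. Psma1 (-0.39 ± 0.17, adjusted p = 0.232) and Psma6 (-0.04 ± 0.12, adjusted p = 0.912) were the subunits that were not higher in all pairs. Without pair 1, 7 rose, and without the dim arrays 1 did, with medians of 0.41 and 0.36.

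Of 14 heat shock proteins, cytosolic except for the mitochondrial Hspd1 and Hspe1, 4 rose, none fell and 10 were higher in all 4 pairs (median 0.47). Of all genes, 2.29% rose and 12.2% were higher in all 4 pairs. Hspb1, a small heat shock protein, read 108, 511, 122 and 663 in CLA, against 66.2, 97.1, 53.2 and 315 in LA (1.33 ± 0.27, adjusted p = 0.0136). The co-chaperones Dnaja1 (0.78 ± 0.16) and Dnajb4 (0.87 ± 0.18, with another probe set at -0.20) and the small heat shock protein Hspb8 (0.49 ± 0.10) rose with adjusted p of 0.014 to 0.0141. Of 12 metallothionein and zinc transporter genes 4 rose: metallothionein Mt2 (0.94 ± 0.24, adjusted p = 0.0345) and the transporters Slc39a14 (0.78 ± 0.14), Slc39a10 (0.95, and 0.52 with the larger offset) and Slc30a4 (0.64). Mt2 was low on both arrays of pair 1, 521 in CLA and 283 in LA, against 3986 to 4899 in the other CLA arrays and 1933 to 2683 in the other LA arrays. Among 18 autophagy genes, Sqstm1 and Gabarapl1 (0.78 ± 0.16, adjusted p = 0.0144), an ATG8 family member, rose and the median was 0.00. Without pair 1, 7 heat shock proteins and 3 metallothionein and zinc genes rose, and without the dim arrays 1 and none did.

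**Figure D3:**
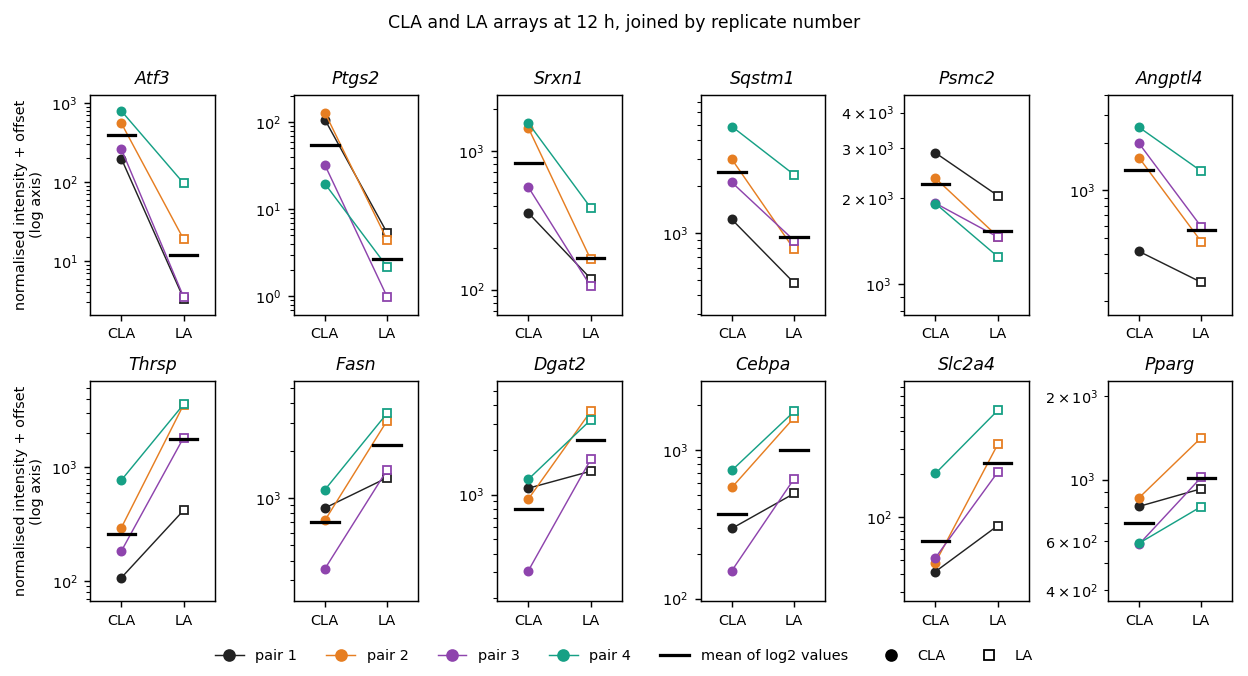
Normalised intensity plus the offset of 0.984 (y axis, log scale) of 12 genes in the 4 CLA arrays (filled circles) and the 4 LA arrays (open squares) at 12 h, with arrays of the same replicate number joined and bars at the mean of the log2 values. The 6 genes in the upper row slope down from CLA to LA in every pair, and the 6 in the lower row slope up in every pair.

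Of 22 transcription factors and coactivators of fat cell formation 6 fell and 1 rose, with a median of -0.23. Cebpa read 296, 559.5, 153 and 729.8 in CLA, against 510.1, 1655, 641 and 1819 in LA (-1.43 ± 0.18, adjusted p = 0.00101). Pparg fell less, to 799.5, 858, 583 and 588 in CLA, against 926, 1416, 1019 and 799 in LA (-0.54 ± 0.14, adjusted p = 0.0401). Each CLA array was below its LA partner for both genes, by 0.21 to 0.80 for Pparg and by 0.78 to 2.06 for Cebpa. Klf15, a factor that induces Slc2a4 and amino acid catabolism, read 18.5, 16.3, 0 and 134 in CLA, against 67.3, 232, 109 and 319 in LA (-3.40 ± 0.76, adjusted p = 0.0212, and -1.30 with the larger offset). The coactivator Ppargc1b (-1.25 ± 0.23, adjusted p = 0.00823, and -0.80 with the larger offset), Stat5a (-0.75 ± 0.18, adjusted p = 0.0285) and PPARγ's partner Rxra (-0.38 ± 0.10, adjusted p = 0.0377) also fell. Klf5, which acts early in adipogenesis, rose to 94.9, 505, 211 and 287 in CLA, against 43.9, 105, 90.5 and 109 in LA (1.49 ± 0.36, adjusted p = 0.0311). Without pair 1, 6 fell and 1 rose, and without the dim arrays 1 fell and none rose.

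Control of fatty acid synthesis showed 2 large falls among 12 regulators. Thrsp, a nuclear protein of lipogenic tissue known as Spot 14, read 106, 294, 183 and 772 in CLA, against 419, 3575, 1834 and 3599 in LA (-2.78 ± 0.29, adjusted p = 0.000549). Mlxipl, which encodes the glucose sensor ChREBP, was dim, with 0, 1.71, 10.8 and 13.8 in CLA, against 19, 111, 14.5 and 62 in LA (-3.05 ± 0.74, adjusted p = 0.0311, and -0.69 with the larger offset). Srebf1, the insulin-driven regulator SREBP-1, did not pass (-0.52 ± 0.15, adjusted p = 0.0707). Fasn, the fatty acid synthase, read 864, 720.2, 354 and 1128 in CLA, against 1347, 3111, 1512 and 3466 in LA (-1.61 ± 0.23, adjusted p = 0.00256), with all CLA arrays below all LA arrays. It was the only call among 17 fatty acid synthesis genes. Acaca (-0.68), Acly (0.28), Elovl6 (0.01) and Scd1 (-0.38 ± 0.20, adjusted p = 0.327) did not pass. Scd1 is bright, and in pair 4 both arrays read 8703. Without pair 1, 3 regulators and Fasn fell, and without the dim arrays 1 regulator, Thrsp, and Fasn did. Mlxipl lost the call in both (adjusted p = 0.0789 and 0.103) and passed in 2 of the 8 fits without 1 array.

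Triglyceride synthesis had the lowest median of the 35 lists, -0.80 over 16 measured genes; with the larger offset it was -0.39, above -0.42 for lipid droplet proteins and lipases. Of the 16, 7 fell, none rose and 10 were lower in all 4 pairs. Gpd1, which makes glycerol 3-phosphate, read 2129, 837, 339 and 2276 in CLA, against 3320.1, 3157, 2255 and 3819.9 in LA (-1.51 ± 0.33, adjusted p = 0.0181). Gpat3, an enzyme of the first acylation, read 938, 445, 93 and 308 in CLA, against 1120.0, 1005, 259 and 554 in LA (-0.94 ± 0.20, adjusted p = 0.0154), and Gpam, another, fell by 1.11 on the log2 scale (adjusted p = 0.0199). Each CLA array was below its partner for Gpd1 and Gpat3, least in pair 1. Agpat2, the second acylation, fell by 1.02 on the log2 scale (adjusted p = 0.012). Lpin1, the phosphatidate phosphatase, read 150.1, 145, 70 and 342 in CLA, against 248, 735, 282 and 963 in LA (-1.64 ± 0.23, adjusted p = 0.00243). Dgat2, which adds the last fatty acid, read 1103, 932, 306 and 1267 in CLA, against 1435, 3638, 1723 and 3184 in LA (-1.54 ± 0.27, adjusted p = 0.00695), with all CLA arrays below all LA arrays. The glycerol channel Aqp7 was dim (-1.65 ± 0.40, adjusted p = 0.0303) and did not pass with the larger offset. Dgat1 (-0.64) and Pck1 (-1.19) did not pass. Without pair 1, 9 genes fell, and without the dim arrays 1 did.

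Lipid droplet proteins and lipases gave the most falls, 9 of 20 measured, with 2 rises and a median of -0.46. Among the falls were lipases and an inhibitor of lipolysis. The inhibitor of the first lipase step, G0s2, read 779.8, 505, 332 and 698 in CLA, against 1109, 2160.5, 1684 and 1645 in LA (-1.54 ± 0.24, adjusted p = 0.00426). Hormone-sensitive lipase (Lipe) fell by 1.25 on the log2 scale (adjusted p = 0.00991), with another probe set at 0.50. Monoglyceride lipase (Mgll), the last step, read 20.3, 29.8, 27.1 and 54.9 in CLA, against 75.2, 255, 76 and 222 in LA (-2.09 ± 0.29, adjusted p = 0.00219, and -1.14 with the larger offset). CLA and LA did not overlap for G0s2 and Mgll. Pnpla3, a lipid droplet hydrolase, read 50.1, 30.8, 0 and 46.1 in CLA, against 88.8, 382, 56.2 and 189.8 in LA (-3.07 ± 0.64, adjusted p = 0.0153, and -1.25 with the larger offset). Seipin (Bscl2), which shapes new droplets, fell by 1.23 on the log2 scale (adjusted p = 0.00121), the droplet fusion protein Cidec by 1.0 (adjusted p = 0.0337) and the carboxylesterases Ces1f and Ces1d by 1.0 and 1.27. Against these, Angptl4, a secreted inhibitor of lipoprotein lipase and a PPAR target, rose to 413, 1610.3, 1981 and 2502 in CLA, against 263, 475, 589.7 and 1322 in LA (1.27 ± 0.22, adjusted p = 0.00632). The droplet coat protein Plin2, also a PPAR target, rose to 1767, 3276, 2921 and 5056 in CLA, against 1009, 1461, 1623 and 3403 in LA (0.85 ± 0.16, adjusted p = 0.01). The lipoprotein lipase gene Lpl (-0.14 ± 0.10, adjusted p = 0.5) and Fabp4 (0.02 ± 0.08, adjusted p = 0.95) did not pass, and of 13 genes of fatty acid uptake and binding none passed. Without pair 1, 11 of the 20 fell and 2 rose, and without the dim arrays 3 of 19 fell and 2 rose.

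Of the glucose transporters, 1 fell and 1 rose. The insulin-responsive transporter Slc2a4 (GLUT4) read 40.8, 47.3, 51.2 and 200.2 in CLA, against 86.2, 319.6, 204 and 551 in LA (-1.81 ± 0.27, adjusted p = 0.00327), while the basal transporter Slc2a1 (GLUT1) read 332, 1045, 1113 and 966 in CLA, against 239, 265, 577 and 412 in LA (1.16 ± 0.29, adjusted p = 0.0345). In each pair Slc2a4 was lower and Slc2a1 higher under CLA. Of 23 genes on the glucose list 3 fell and 1 rose. The other falls were the regulator of glycolytic flux Pfkfb3 (-1.54 ± 0.26, adjusted p = 0.00594, and -0.86 with the larger offset) and the muscle-type phosphofructokinase Pfkm (-0.51 ± 0.12, adjusted p = 0.0311). The list's entry Gpi1 was matched through a synonym to Pigq, which is not a gene of glucose metabolism. Pigq is counted among the 23 and did not pass. Of 18 insulin signalling genes 3 fell: Pde3b, which breaks down cyclic AMP on insulin (-1.62 ± 0.36, adjusted p = 0.0215), the GLUT4 traffic protein Tbc1d4 (-0.58 ± 0.11, adjusted p = 0.00823) and the PI3-kinase subunit Pik3r1 (-0.74 ± 0.17, adjusted p = 0.0249). The receptor Insr (-0.26 ± 0.20, adjusted p = 0.546) and Irs1 (-0.30 ± 0.18, adjusted p = 0.415) did not pass. Among 16 secreted factors the apolipoprotein Apoc1 (-1.54 ± 0.30, adjusted p = 0.0123) and apelin (Apln, -1.0 ± 0.24, adjusted p = 0.0286) fell. Adiponectin read 7057, 5993, 3648 and 5993 in CLA, against 7459, 8108, 6934 and 7929.6 in LA (-0.46 ± 0.14, adjusted p = 0.0873), and leptin (Lep) was at 0 on all arrays but LA array 1, which read 4.18. Of 19 hormone receptors the fatty acid receptor Ffar4 (-2.11 ± 0.46, adjusted p = 0.0199, and -0.96 with the larger offset) and the FGF21 co-receptor Klb (-3.30 ± 0.84, adjusted p = 0.0374, and -1.13 with the larger offset) fell. Among the 12 largest falls outside these lists, Aoc3, an amine oxidase of the fat cell surface, fell to 402, 224, 206 and 288 in CLA, against 825, 785, 661 and 702 in LA (-1.45 ± 0.17, adjusted p = 0.000986), and the carbonic anhydrase Car2 by 2.11 on the log2 scale (adjusted p = 0.00601). Without pair 1, 5 glucose, 4 insulin, 4 secreted factor and 3 receptor genes fell and 2 glucose genes rose, and without the dim arrays 2 glucose genes and 1 insulin gene fell and none rose.

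Few mitochondrial genes passed. Branched-chain amino acid breakdown had 4 falls of 19 measured genes and no rise, a median of -0.47, and 10 members lower in all 4 pairs. Ivd, the dehydrogenase of the leucine path, read 274, 349, 228 and 688 in CLA, against 325, 691, 363 and 1043 in LA (-0.62 ± 0.12, adjusted p = 0.0121). Mccc1 (-0.53 ± 0.13), Pccb (-0.55 ± 0.14) and Bckdk (-0.58 ± 0.11), a kinase that switches the pathway's main enzyme off, fell with adjusted p from 0.0104 to 0.0365. Of 22 genes on the tricarboxylic acid cycle list 1 fell, with a median of -0.29. The faller was Mdh1 (-0.33 ± 0.09, adjusted p = 0.0457), the cytosolic malate dehydrogenase, and the mitochondrial enzyme's gene Mdh2 did not pass. Of 20 fatty acid oxidation genes 1 fell (Hadh, -0.38 ± 0.10, adjusted p = 0.0446), with a median of -0.26. Of 25 respiratory chain genes 3 fell (Cox7a1, -1.37 ± 0.33 and -0.65 with the larger offset, Cox5a, -0.40 ± 0.10, and Atp5o, -0.37 ± 0.10) with a median of -0.22, and no gene of the 3 lists rose. The shares that fell in these 3 lists were 4.55%, 5% and 12%, against 2.4% of all genes. With the larger offset 7, 6 and 8 members of these 3 lists fell and 9 of the amino acid breakdown list, where 4.25% of all genes fell. Coq8a, which takes part in coenzyme Q synthesis, fell to 39.2, 40.8, 14.6 and 212 in CLA, against 65.5, 334, 121 and 853 in LA (-2.17 ± 0.39, adjusted p = 0.00823, and -1.35 with the larger offset). Without pair 1, 3 amino acid breakdown, 3 oxidation and 5 respiratory genes fell and 1 amino acid breakdown gene rose, and without the dim arrays 1 amino acid breakdown gene fell and no other gene of these 4 lists passed. Mdh1, Cox5a, Mccc1 and Pccb lost the call without pair 1, with adjusted p of 0.0544, 0.0677, 0.0616 and 0.0791.

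Of the remaining lists, cholesterol synthesis had 2 rises of 18 (Hsd17b7, 0.76 ± 0.12, adjusted p = 0.00471, 0.50 with the larger offset, and Idi1, 0.48 ± 0.11, adjusted p = 0.0264) and no fall. Of 29 collagen and matrix genes the collagenase Mmp13 (2.94 ± 0.63, adjusted p = 0.0172, and 1.20 with the larger offset) and the urokinase receptor Plaur (1.23 ± 0.33, adjusted p = 0.0479, and 0.55 with the larger offset) rose, and the collagens Col1a1 (0.03) and Col3a1 (0.01) did not pass. Of 18 preadipocyte and mesenchymal genes the matrix protein Ccn1 rose (1.56 ± 0.41, adjusted p = 0.0433) and the preadipocyte factor Zfp423 fell (-0.78 ± 0.13, adjusted p = 0.00594, and -0.42 with the larger offset). Of 22 cell cycle genes the inhibitors Cdkn2c, at 616, 363, 341 and 649 in CLA against 942, 1345, 938 and 1286 in LA (-1.23 ± 0.18, adjusted p = 0.00284), and Cdkn1b (-0.52 ± 0.11, adjusted p = 0.0184, with another probe set at 0.11) fell, and none rose. Of 16 p53 and Gadd45 genes Gadd45a (1.49 ± 0.23, adjusted p = 0.00437, and 0.95 with the larger offset) and Plk3 (3.38 ± 0.61, adjusted p = 0.00873, and 0.44 with the larger offset) rose and Gadd45g fell (-1.06 ± 0.22, adjusted p = 0.0142, and -0.69 with the larger offset). Of 17 clock genes the output factor Dbp fell (-0.89 ± 0.19, adjusted p = 0.015, and -0.44 with the larger offset). The shares that fell were 5.88% of the clock list, 9.09% of the cell cycle list and 5.56% of the preadipocyte list, against 2.4% of all genes. With 1 or 2 calls in each, these shares rest on few genes. Without pair 1, Idi1 (adjusted p = 0.0699) and Dbp (adjusted p = 0.0557) lost the call, which left the clock list with none; cholesterol synthesis then had 1 rise and 1 fall, the collagen and matrix list 5 rises, the preadipocyte list 1 rise and 1 fall, the cell cycle list 1 rise and 2 falls, and the p53 and Gadd45 list 3 rises and 2 falls. Without the dim arrays the calls left in these 6 lists were 1 rise in cholesterol synthesis, 2 rises in the p53 and Gadd45 list, and 1 fall each in the cell cycle and clock lists.

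**Figure D4:**
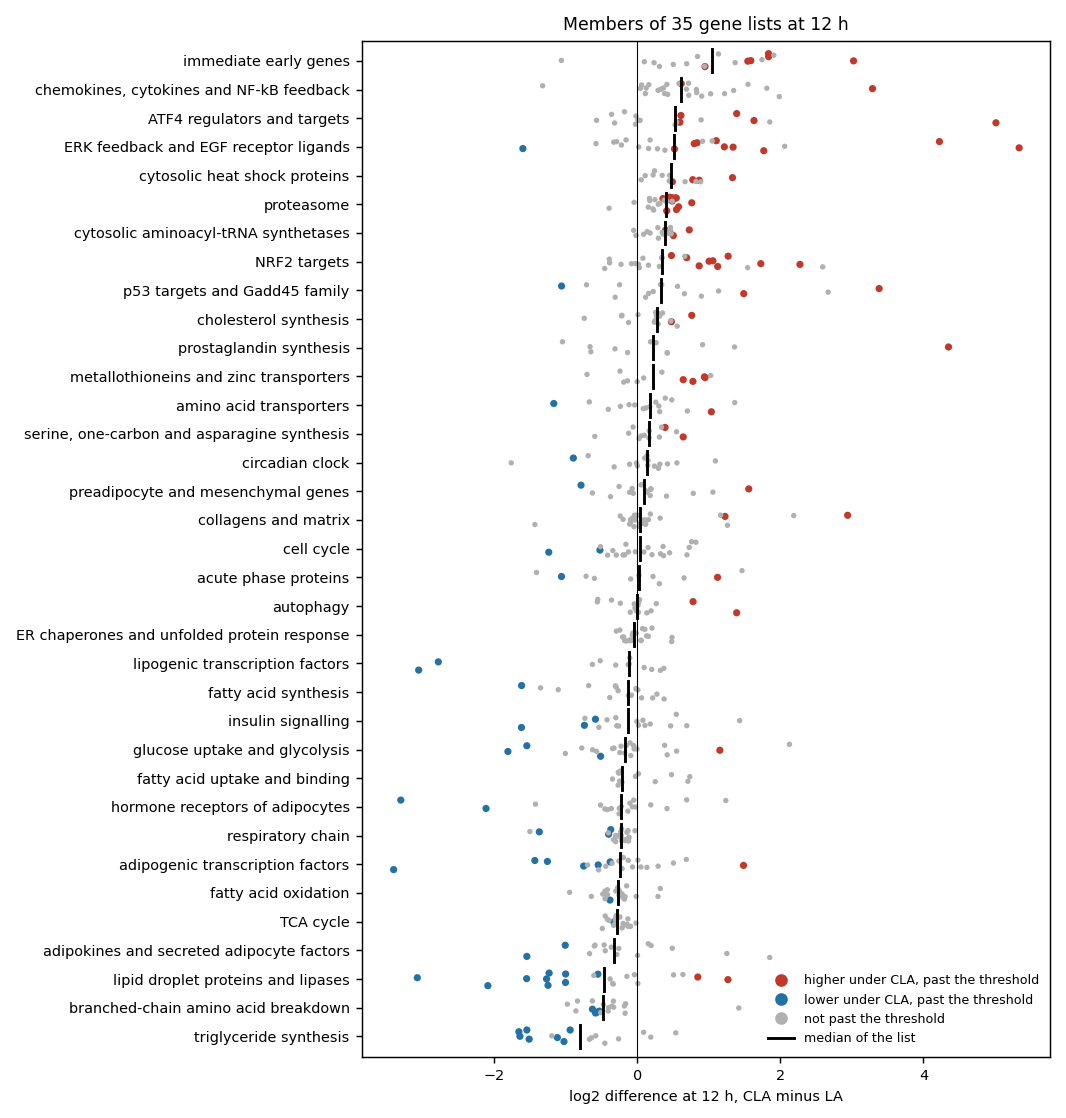
Log2 difference CLA minus LA at 12 h (x axis) of every measured member of 35 gene lists (rows, ordered by median), with members past the threshold in red (higher under CLA) or blue (lower) and the list's median as a black bar. Medians run from -0.80 for triglyceride synthesis to 1.04 for immediate early genes, and most members of most lists are grey.

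Times on either side of 12 h have their own LA arrays. The 24 h differences share no array with those at 12 h, although they share the fit. The 8 h comparison is not balanced over the array sets. Its CLA replicate 3 is in the set that holds pair 3, and its LA replicate 3 is among the dim arrays. The set term that adjusts for this is estimated from all arrays, those at 12 h included. The 8 h differences are therefore not fully separate from the 12 h arrays. Of the 331 genes that rose at 12 h, 328 were higher under CLA at 8 h and 321 at 24 h, and of the 346 that fell, 344 were lower at 8 h and 337 at 24 h. The share of all genes that were higher or lower at these times was not counted. The median difference of the 12 h risers was 0.70 at 8 h and 0.50 at 24 h. That of the 12 h fallers was -0.62 at 8 h and -0.81 at 24 h. Over all genes tested the medians were -0.03 at 8 h and 0.01 at 24 h. At 8 h 261 genes passed (1.81%), of which 180 rose (1.25%) and 81 fell (0.561%), and at 24 h 664 passed (4.6%), of which 127 rose (0.88%) and 537 fell (3.72%). The comparisons at 8 h and 24 h had 6 arrays each, against 8 at 12 h. Numbers of calls and shared percentages therefore depend on the arrays at each time and are no measure of how the effect grew or waned. Shared rises numbered 119 between 12 h and 8 h, which is 36% of the 12 h rises and 66.1% of the 8 h rises, and 71 between 12 h and 24 h, which is 21.5% of the 12 h rises and 55.9% of the 24 h rises. Shared falls numbered 54 with 8 h (15.6% of the 12 h falls and 66.7% of the 8 h falls) and 205 with 24 h (59.2% of the 12 h falls and 38.2% of the 24 h falls). Yet limma called 0 genes when the 12 h difference was set against that at 8 h (546 at an unadjusted p under 0.05, 3.78%) and 0 when that at 24 h was set against 12 h (650, 4.51%), and 0 in each with the larger offset. Thrsp stood at -1.50 at 8 h, -2.78 at 12 h and -4.69 at 24 h, and its step from 12 to 24 h of -1.91 had an unadjusted p of 0.000612 and an adjusted p of 0.959. Ptgs2 stood at 4.72 at 8 h, 4.35 at 12 h and 2.88 at 24 h, Hmox1 at 2.59, 1.73 and 0.97, and Fasn at -0.97, -1.61 and -2.01.

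**Figure D5:**
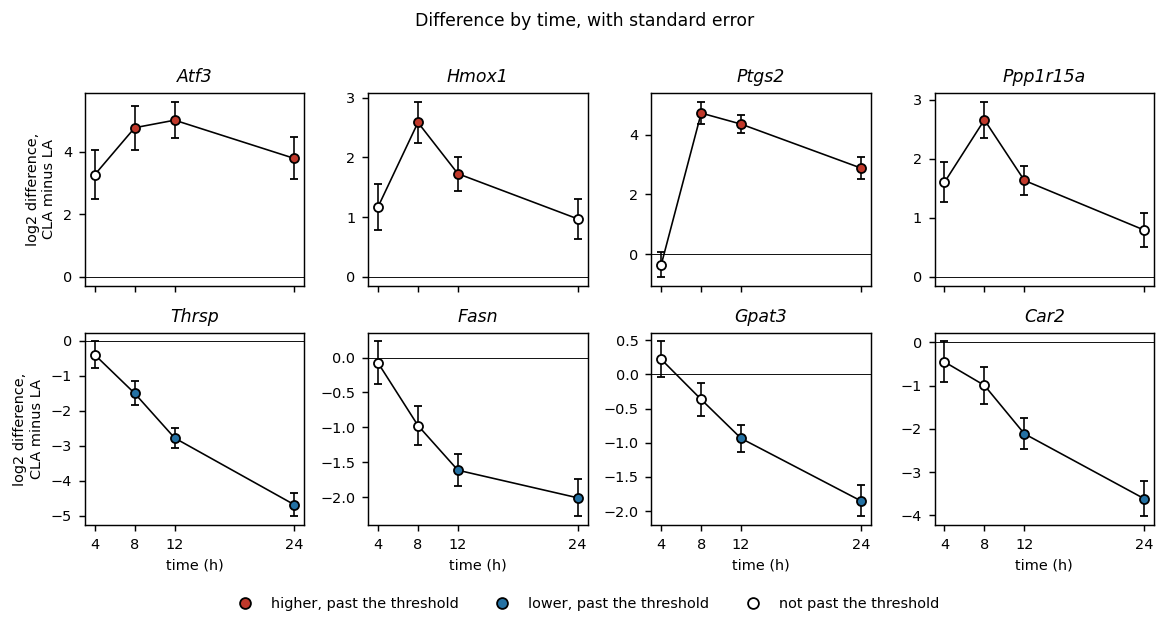
Log2 difference CLA minus LA with its standard error (y axis) at 4, 8, 12 and 24 h (x axis) for 4 genes that rose at 12 h (upper row) and 4 that fell (lower row), filled where the adjusted p was under 0.05 at that time. Each upper gene is filled at 8 and 12 h and each lower gene at 12 and 24 h. No change from 8 to 12 h or from 12 to 24 h passed the test, and the change from 4 to 8 h was not tested.

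The authors' deposited table for 12 h, made from the same 8 arrays and therefore no independent evidence, lists a ratio and a p-value per probe set. All 331 genes that rose had a ratio above 1 in the authors' deposited table and all 346 that fell a ratio below 1, read as higher and lower under CLA. Of the risers, 120 had a p under 0.01 in the authors' deposited table, and of the fallers 79, where 164 (1.14%) and 104 (0.721%) of the 14428 genes tested did. Ratios in the authors' deposited table were 26.7 for Dusp5, 14.3 for Atf3, 12.8 for Sprr1a and 11.8 for Ptgs2, and 0.0742 for Klf15, 0.114 for Coq8a and 0.163 for Thrsp.

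Promoter letters of the called genes were counted in the same 300-base RefSeq windows, on both strands. TGANTCA lay in 11.6% of 268 risers and 4.3% of 279 fallers with a promoter, against 6.89% of the 11594 tested. TGACGTCA lay in 5.6% and 1.79%, against 3.2%, and TGACNNNGC in 21.3% and 15.4%, against 16.5%. The E-box CACGTG lay in 14.2% and 10.4%, against 10.8%, and TGATGNAA in 4.85% and 4.3%, against 2.95%. For the proteasome list, TGACNNNGC was in 4 of 21 promoters (19%) and TGANTCAGC in 1. No match says only that the letters are not in the window.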

How the data were processed

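Transcript levels of 8 arrays at 12 h (4 CLA, 4 LA) were compared, with all 25 arrays in the fit. The deposited value table holds 1 intensity per probe set on a linear scale for 45101 probe sets. How the probes were summarised and scaled is not given in the sources used here; 21.6% of the deposited intensities lie at or below 0. The authors also deposited a 12 h table with a ratio, its log10, a p-value and 2 intensities per probe set; its direction is unstated and was read from the values, since its first intensity correlated with the LA mean at 0.958 and with the CLA mean at 0.942.

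Of the probe sets, 34958 had 1 gene symbol, 932 several and 9211 none, and only the first were used. Intensities were floored at 0, 0.984 (the 25th percentile) or 57.7 (the 75th) was added, log2 was taken and the arrays were quantile normalised. The probe set that was brightest on average stood for its gene, and 14428 of 18194 genes above the array's median on at least 2 arrays were kept. The fit used limma 3.58.1 in R 4.3.3 (lmFit and eBayes, 8 group means, 5 array sets from average-linkage clustering with the treatment unused, Benjamini-Hochberg adjusted p under 0.05). It was run on simulated data with independent errors and the array sets given, and median estimates were checked against the true differences. The derivation of the sets from the values was not tested. P-values measure the spread between these arrays, which may be technical, and the number of arrays limits the precision.

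Same-numbered CLA and LA arrays at 12 h deviated together (correlations of deviations from the group means of 0.501, 0.160, 0.307 and 0.560 for numbers 1 to 4, and at most 0.087 between other numbers), so the numbers pair the arrays. The set term equals this pairing at 12 h.

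The comparison, the 35 gene lists (733 entries) and the rules were chosen with earlier results of these data known. The rule named the 12 largest rises and falls by the larger offset among calls with 1 sign in all 4 pairs, up to 5 called members a list by smallest p, and 21 key genes. Other list members and markers in the text (such as Egr1, Dusp6, Etv5, Spry2, Spred2, Hbegf, Fosl1, Nqo1, Gclc, Blvrb, Osgin1, Slc7a11, Rxra, Gpam, Aqp7, Plin2, Ces1f, Ces1d, Hspa5, Psma1 and Psma6) were chosen after their values were seen. Alternatives changed the sets, the block, the offset, the normalization, the filter, the probe set, limma's trend and the arrays used.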

Additional observations from a re-analysis of the deposited data

Results flagged for a closer look

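Of 246 groups of 4 arrays (123 named genes in CLA and in LA), 18 held an array whose gap to the nearest of the others, on the log2 scale, was large against the group's whole range; chance gives about 5% of groups. They are 8 CLA and 10 LA groups, with 6 arrays of pair 1, 10 of pair 4 and 2 of the other pairs. In pair 1, LA was high for Ereg (44.7, others 8.56 to 11.3), Dusp5 (17.6, others 0) and Lep (4.18, others 0), CLA was low for Slc2a1 (332, others 966 to 1113), and Mt2 was low in CLA (521) and LA (283).

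In the dim pair 4, CLA was low for Dnaja1 (427, others 1133 to 1183) and Pik3r1 (110.5, others 307 to 364) and high for Slc2a4 (200.2, others 40.8 to 51.2), Bckdk (168, others 82.2 to 92.6) and Srebf1 (341, others 129 to 152). LA was high in pair 4 for Rela (570.2, others 191 to 223), Stat5a (338, others 198 to 209), Plk3 (25.5, others 0 to 0.193) and Gabarapl1 (1643, others 532 to 615), and low for Psmc6 (192, others 579 to 715).

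The other 2 were Pnpla3, at 0 in CLA array 3 (others 30.8 to 50.1), and Il6, at 0.114 in LA array 2 (others 8.07 to 9.74).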

How the results depend on the processing

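All 110 named genes that passed kept their direction under every alternative run. Fits that changed only the array sets, the block, limma's trend or the filter leave a gene's 12 h difference as it was, so its direction could not change there. The 12 largest rises and falls were also chosen for 1 sign in all 4 pairs. Of the named genes that passed, 110 also passed with the larger offset, with limma-trend and with the stricter filter, 108 without a filter, 101 without pair 1, 72 in the 4 pairs alone with the larger offset, 54 at p under 0.01 in the authors' deposited table, 40 without the dim arrays and 4 without the array sets. The count of 677 calls (331 higher, 346 lower) became 1281 with the larger offset and its own filter (670 and 611), 1070 with limma-trend, 405 with the mean of all probe sets, 328 with arrays centred on their medians (181 and 147), 129 without the dim arrays, 72 with values as deposited, 4 without the array sets and 1 with the 12 h arrays alone and no block. With the replicate number as a block in all 25 arrays 30 genes passed (15 and 15). With the 12 h arrays alone and the replicate block, or the array sets, 0 passed, and 291 with the replicate block and the larger offset (155 and 136), an alternative chosen after seeing the data, as was leaving out pair 1. Fewer arrays set the spread in these fits. Leaving out 1 array at 12 h gave 163 to 885 calls, and 50 to 105 of the 110 genes then passed. It was 618 without a filter and 771 with the stricter one. Differences between times stayed at 0 calls in every alternative run. Centring moved the share of higher calls from 48.9% to 55.2% and the median of all genes to 0.03.

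Of the named genes that did not pass, Cebpb and Fabp4 changed sign. Cebpb stood at -0.012 with values as deposited and at -0.041 without the dim arrays, and ran from -0.087 to 0.22 with 1 array left out. Fabp4 stood at -0.066 as deposited, -0.037 centred, -0.029 without the dim arrays, -0.24 with the mean of its probe sets and -0.063 in the authors' deposited table, and ran from -0.020 to 0.061 with 1 array left out. The cause was not tested.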
